A study of Ovis aries with 60 samples.

Results

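The genes described here encode the proteins of the cytosolic ribosome and were chosen by name: symbols that start with RPL or RPS, followed by a number and in some cases a letter, together with RPLP0, RPLP1, RPLP2 and RPSA. This rule found 77 of the 28525 genes in the RNA count table, 45 of the large subunit and 32 of the small subunit. RNA was sequenced from the semen of 20 F2 Polypay rams. All were grandsons of F0 rams that had either received rumen-protected methionine (treatment group, 10 rams) or the same diet without it (control group, 10 rams), and neither the F1 nor the F2 animals were given the supplement. Each group came from 5 F0 sires with 2 grandsons each, so that the rams of a sire are relatives. According to the study's methods each treated F0 ram had a control twin, but the labels do not say which sires were twins. The sire numbers of the groups are consecutive (3 and 4, 5 and 6, 9 and 10, 11 and 12, 23 and 24). The semen pellets of both groups had been incubated in a buffer that lyses somatic cells before RNA was extracted. Each ram gave 1 library, called by its title in the labels, in which the number is that of the ram and the last letter stands for treatment (T) or control (C).

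Ribosomal proteins, with the ribosomal RNAs, build the small subunit, which decodes the messenger RNA, and the large subunit, which joins amino acids. Each ribosome takes up about a single copy of most of them, and in growing cells their messenger RNAs are made together. Spermatids stop transcription as their chromatin is packed with protamines, and mature sperm carry RNA left over from spermatogenesis together with ribosomes that no longer translate to any large extent. Semen also contains leukocytes and epithelial cells, whose cytoplasm is rich in ribosomes.

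The libraries held between 805831 and 13137757 counts on genes, and 5 of them fewer than 2000000. According to the study's methods the number of reads sequenced per library varied far less than these totals. A low total, called shallow below, therefore means few reads counted on genes and not few reads sequenced. Why the totals differ was not tested. Spermatid markers (17 of the 19 listed genes, each with at least 1 count in every library; PRM2 and LDHC were not analysed here) made up 0.00671% to 1.79% of the counts with a median of 0.0845%. Leukocyte markers (18 genes) made up 0.0236% to 3.64% with a median of 1.22%. The same summed shares were 0.00282% to 0.0171% for 11 lymphocyte markers, 0.0131% to 0.970% for 10 squamous epithelial markers and 0.0107% to 1.28% for 8 simple epithelial markers. RNA labelled as sperm thus carried markers of other cell types in all 20 libraries. The libraries of ram SpermRNA382T (treatment) and ram SpermRNA485C (control) stood apart, with the highest spermatid shares (1.79% and 1.52%) and the lowest leukocyte shares (0.0419% and 0.0236%). In bulk RNA of this kind, fewer cells of a type and less RNA per cell cannot be told apart.

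The ribosomal protein genes together took a small part of the counts of each library. Reads with several matches were not counted and a few ribosomal protein genes were not analysed, so that their share of the RNA may be understated. In the treatment group their summed counts were 0.179% of the library at the lowest, 0.258% at the median and 0.450% at the highest, and in the control group 0.152%, 0.231% and 0.317%. The groups overlapped over most of this range, although the 4 highest libraries (rams SpermRNA323T, SpermRNA500T, SpermRNA320T and SpermRNA372T) were all from the treatment group. Counting error was much smaller than the spread between rams: the Wilson 95% interval was 0.148% to 0.157% for the lowest library (ram SpermRNA485C) and 0.445% to 0.455% for the highest (ram SpermRNA323T). Such intervals cover counting error only.

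**Figure D1:**
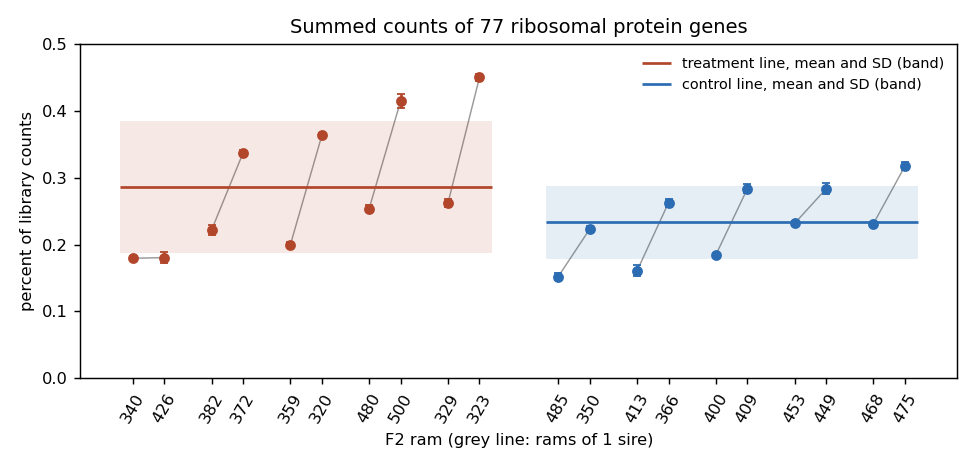
Summed counts of the 77 ribosomal protein genes as percent of all gene counts (vertical axis) in each F2 ram (horizontal axis, rams of 1 sire joined by a grey line). Points are libraries with Wilson 95% intervals, lines are group means and bands are 1 SD; the groups overlap, and the 2 rams of a sire often lie far apart.

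The treatment group had a mean log2 share of −1.88 ± 0.49 (SD, n = 10), and the mean of the control group was −2.14 ± 0.36 (SD, n = 10). The difference of 0.26 was smaller than the SD of either group, which describes single rams and not the error of that difference. Between sires of consecutive numbers, each taken as the mean of its 2 rams, it was 0.34, 0.55, 0.01, −0.19 and 0.59, higher on the treatment side in 4 of 5 pairs, with an SD of 0.34 over the pairs. This comparison was added after the data had been seen. Rams of the same sire did not have like shares in general. The higher of the 2 shares was 1.01 times the lower for the grandsons of sire 11 and 1.82 times the lower for those of sire 5, with the other 8 sires in between.

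All 77 genes were detected, 74 of them with at least 1 count in every library. RPL22, RPL36A and RPS27L each had 0 counts in at least 1 library. To be tested, a gene needed a count of 15 or higher in over 10 of the rams, and 74 of the 77 did so, among 13577 genes in all. The study's methods name the same filter but report a larger number of genes that passed it. Why the numbers differ was not tested. RPL36A, an X-linked large subunit gene, did not pass: it had 0 to 93 counts with a median of 10.5. It was at 0 in rams SpermRNA382T, SpermRNA413C and SpermRNA485C, where 3 counts, the most that a count of 0 allows, would be 2.20, 3.72 and 1.11 CPM (the counts-per-million scale, here on library totals). RPL3L, the striated muscle form of RPL3, had 3 to 46 counts. Both in TMM CPM and as percent of the members' counts it was highest in ram SpermRNA382T, with 28 counts, or 0.927% of those of all members. RPS27L, a p53-induced relative of RPS27, had 0 to 46 counts and was at 0 in rams SpermRNA382T, SpermRNA426T and SpermRNA449C, where 3 counts would be 2.20, 2.77 and 2.07 CPM on that scale. Both of these had medians (10.5 and 9.5 counts) under the minimum of 15, so that their levels were not detectable with useful precision at counts this low.

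The next values are CPM after TMM scaling, which sets most genes of the libraries to the same level and does not correct for gene length, so that levels are compared between rams and not between genes. TMM factors ran from 0.371 (ram SpermRNA468C) to 2.38 (ram SpermRNA413C), and over the 20 libraries they fell with the library total (Spearman's rho −0.86) and rose with the spermatid share (rho 0.80). The choice of scale therefore bears on every level that follows.

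Of the 3 proteins of the ribosomal stalk, which recruits elongation factors to the large subunit, RPLP0 and RPLP2 were low in rams SpermRNA382T and SpermRNA485C. In these libraries RPLP1 was high. RPLP0, the base of the stalk, had 16.5, 168 and 457 CPM (lowest, median, highest) in the treatment group and 10.6, 143 and 339 in the control group. RPLP1 had 58.1, 127 and 257 CPM in the treatment group and 40.2, 119 and 191 in the control group. The lowest RPLP0 libraries were those of rams SpermRNA485C and SpermRNA382T, whereas ram SpermRNA382T had the highest RPLP1 level of all 20. RPLP2, which pairs with RPLP1 in the stalk, had 5.10 to 44.3 CPM in the treatment group and 4.70 to 42.3 in the control group, and rams SpermRNA413C and SpermRNA382T were lowest.

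RPSA, a small subunit protein that is also known as a laminin receptor, had 3.53, 72.4 and 244 CPM in the treatment group and 10.4, 69.7 and 169 in the control group. The lowest RPSA libraries were those of rams SpermRNA382T, SpermRNA413C and SpermRNA485C (3.53, 10.4 and 10.6 CPM). RPS2, a small subunit protein near the entry channel for messenger RNA, had 8.24, 172 and 623 CPM in the treatment group and 9.64, 146 and 469 in the control group. RPL3, a large subunit protein that reaches to the peptidyl transferase centre, had 6.28, 145 and 263 CPM in the treatment group, and the control group had a median of 114 and a highest value of 319. For both genes rams SpermRNA382T and SpermRNA485C were lowest. RPS2, RPLP0, RPL3 and RPLP1 were among the 5 members with the highest mean CPM. Each of RPSA, RPS2 and RPL3 overlapped between the groups.

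The X-linked members RPL10 and RPS4X were also low in rams SpermRNA382T and SpermRNA485C, although ram SpermRNA413C (4.18 CPM) lay between them for RPL10. RPL10, a late-joining protein of the large subunit, had 4.71, 21.7 and 78.5 CPM in the treatment group and 1.84, 24.3 and 66.6 in the control group. RPS4X had 1.57, 14.7 and 78.5 CPM in the treatment group and 2.53, 11.2 and 38.8 in the control group. RPL39, which is X-linked as well, was not analysed here.

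The parts that single genes took of the ribosomal protein counts of a library need no scaling between libraries. RPLP1 took 2.68% (Wilson 95% interval 2.51% to 2.86%) of these counts in ram SpermRNA372T and 21.7% (20.3% to 23.2%) in ram SpermRNA382T, with a median of 3.89% over the 20 libraries. In ram SpermRNA485C it took 19.6% (18.4% to 20.9%). RPS2 took 0.696% (0.455% to 1.06%) in ram SpermRNA382T, 1.02% (0.755% to 1.38%) in ram SpermRNA485C and 10.6% in ram SpermRNA323T, with a median of 5.70%. RPLP1 was the most counted ribosomal protein gene in 5 libraries (rams SpermRNA366C, SpermRNA413C, SpermRNA475C, SpermRNA485C and SpermRNA382T) and RPL7 in 1 (ram SpermRNA359T, 11.6% of the counts). RPS2 led in 6 libraries, RPLP0 in 5 and RPL3 in 3. Some leads were narrow and may lie within counting error. RPLP1 had 282 counts against 261 of RPL3 in ram SpermRNA366C and 77 against 67 of RPL7 in ram SpermRNA413C. RPLP0 had 335 against 330 of RPS2 in ram SpermRNA500T. The 8 libraries with the highest spermatid shares were those of rams SpermRNA382T, SpermRNA485C, SpermRNA359T, SpermRNA475C, SpermRNA500T, SpermRNA413C, SpermRNA366C and SpermRNA340T, so that all 6 in which RPLP1 or RPL7 led were among them.

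**Figure D2:**
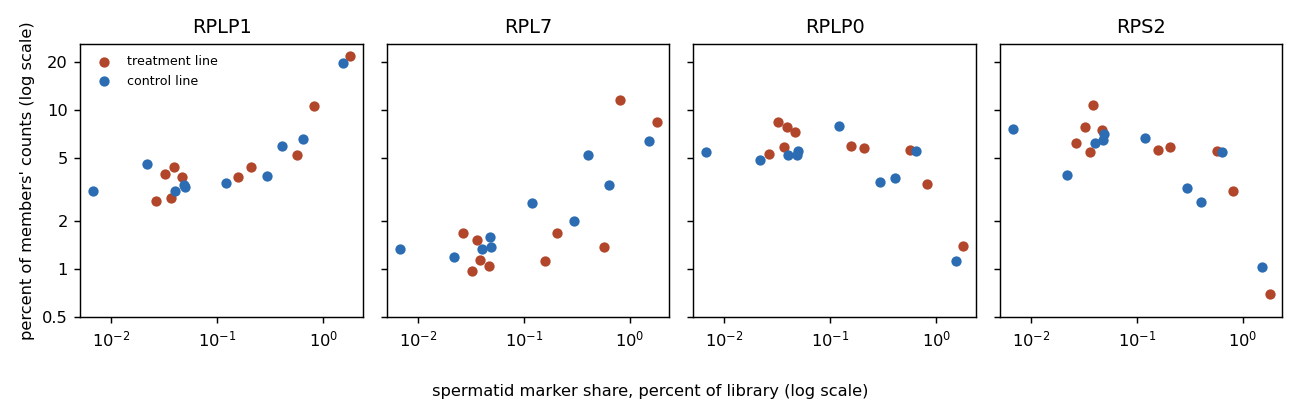
Percent of all ribosomal protein counts taken by RPLP1, RPL7, RPLP0 and RPS2 (vertical axis, log scale) against the summed share of spermatid markers in the library (horizontal axis, log scale). Each point is 1 ram; RPLP1 reaches 21.7% and RPS2 falls to 0.696% in the library with the highest spermatid share.

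To describe the balance between members, the log2 CPM of each of the 74 tested genes was set against their mean in the same library. The SD over rams had a median of 1.09 for log2 CPM and of 0.57 for this ratio, against 0.91 for the log2 CPM of all genes tested. Spearman's rho between pairs of members over the 20 rams had a median of 0.75 (2701 pairs, 98.2% above 0), and the median over all pairs of tested genes was −0.005 (49.7% above 0). Those pairs share their libraries and scale, and the values are given as a description. The members with the most constant ratio were RPL15 (SD 0.28), RPL21 (0.28), RPL31 (0.30) and RPL19 (0.31), all of them large subunit proteins. The least constant were RPL30 (1.10), RPL5 (1.09), RPL36 (1.09), RPL7 (1.09) and RPL7L1 (1.08), again of the large subunit or, for RPL7L1, a paralog of one of its genes. Counts over all rams ranged from 389 (RPL7L1) to 5563 (RPL7) among the least constant and from 2868 (RPL15) to 4334 (RPL19) among these 4, so that counting noise was larger for several of the former.

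**Figure D3:**
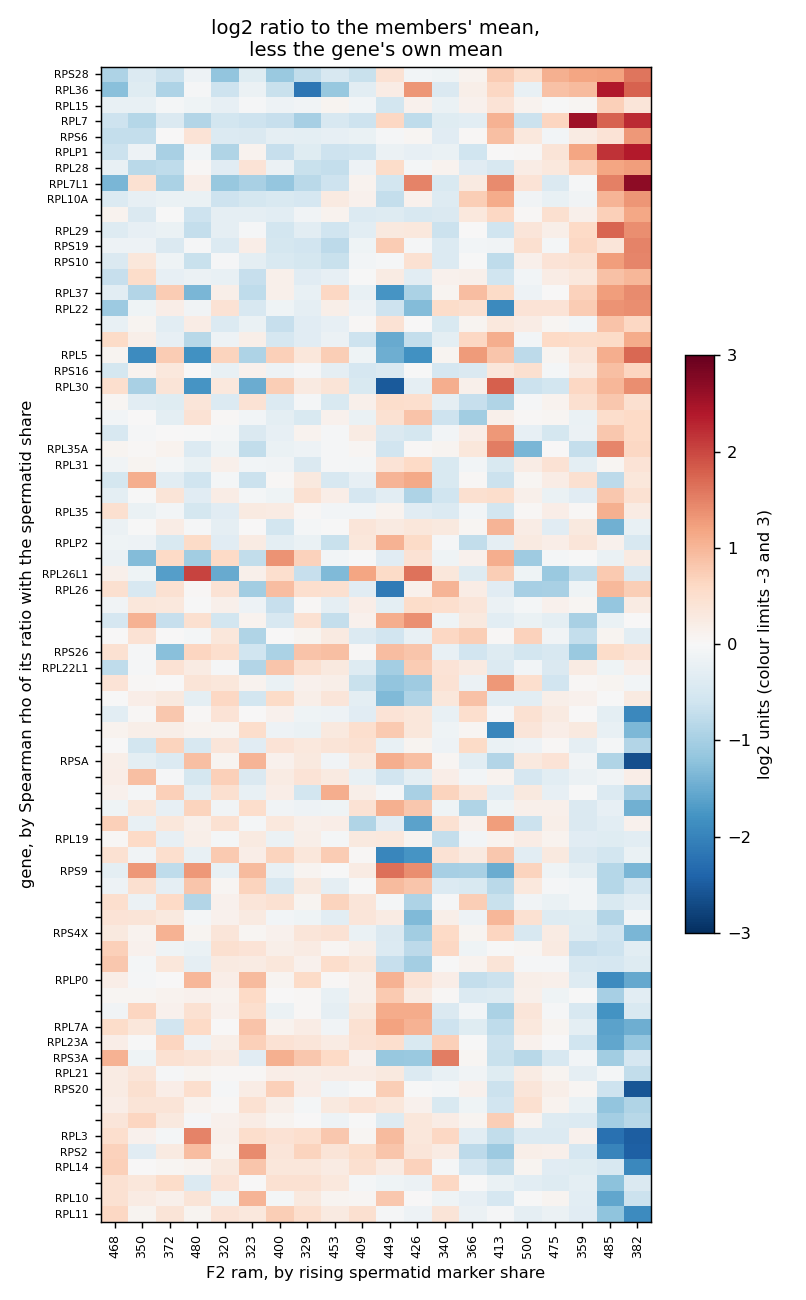
The log2 ratio of each of the 74 tested genes to their mean in the same library, less the gene's own mean over rams (colour, log2 units), with rams ordered from left to right by rising spermatid share and genes by the rho of their ratio with that share (only genes named in the text are labelled). Red cells for RPLP1, RPL7, RPL36 and RPS28 and blue cells for RPS2, RPL3 and RPL11 gather in the rightmost libraries, rams SpermRNA485C and SpermRNA382T.

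A principal component analysis of these ratios placed 42.9% of their variance on a first axis, 23.5% on a second and 6.82% on the third. On the first axis rams SpermRNA382T, SpermRNA485C and SpermRNA413C scored highest (9.79, 8.05 and 3.95) and ram SpermRNA449C lowest (−4.15). RPL7, RPL7L1, RPL5, RPL30, RPL36, RPLP1, RPL37 and RPS28 led its high end, and RPS2, RPL3, RPSA, RPLP0, RPS9, RPL7A, RPS20 and RPL14 its low end. Over the 20 libraries, scores on this axis had a rho of 0.73 with the spermatid share, −0.78 with the simple epithelial share and −0.57 with the leukocyte share. Rams SpermRNA382T and SpermRNA485C, highest on this axis, also lay apart from the others in the leukocyte and simple epithelial shares. Values of rho without them are not given, and their part in this axis was not tested. The second axis placed rams SpermRNA449C and SpermRNA426T (5.31 and 5.04) opposite ram SpermRNA372T (−3.53) and had a rho of −0.68 with the library total. RPL5, whose protein holds a ribosomal RNA of the large subunit and, when free, binds MDM2, followed this axis: it had 1 count in ram SpermRNA426T and 3 in ram SpermRNA449C, and 38.8 CPM in ram SpermRNA372T. RPL30 likewise had 1 count in ram SpermRNA449C and 29.5 CPM in ram SpermRNA372T. Whether the library total has a part in the second axis was not tested.

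The large to small subunit ratio, the summed counts of the 45 genes over those of the 32, was 1.30, 1.43 and 2.30 (lowest, median, highest) in the treatment group and 1.35, 1.49 and 2.29 in the control group. The 3 highest ratios were in rams SpermRNA382T (2.30), SpermRNA485C (2.29) and SpermRNA359T (1.92). On the log2 scale the treated rams had a mean of 0.61 ± 0.26 (SD, n = 10) and the controls one of 0.62 ± 0.22 (SD, n = 10), a difference of −0.01. Over the 20 rams the log2 ratio rose with the log2 spermatid share, with r = 0.78 and rho = 0.80. The same r was 0.67 without rams SpermRNA382T and SpermRNA485C, 0.76 in the 15 libraries over 2000000 counts, 0.69 over 10 sire means, 0.83 within the treatment group and 0.75 within the control group. Without RPLP1 and RPL7, both of the large subunit, which were left out after their values had been seen, the ratio was 1.19 to 1.43 over the 20 libraries, with 1.30 in ram SpermRNA382T, 1.43 in SpermRNA485C and 1.28 in SpermRNA359T, against 1.19 to 1.41 in the libraries other than SpermRNA382T and SpermRNA485C. Its r with the spermatid share was then 0.36 and its rho 0.47, and 0.25 and 0.40 without rams SpermRNA382T and SpermRNA485C. Within the treatment group r was 0.26 and rho 0.31, and within the control group 0.52 and 0.66. No p is given for sums over these genes, which were chosen with results known.

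The summed share of the library was compared with each marker share in the same way. With the spermatid share it had r = −0.28 and rho = −0.31 (n = 20), and r was −0.11 without rams SpermRNA382T and SpermRNA485C, the 2 farthest from the median. Over 10 sire means r was −0.46 and rho −0.45, within the treatment group both were −0.41, and within the control group r was −0.20 and rho 0.02. With the lymphocyte share r was 0.16 and rho 0.22 (n = 20), and r was 0.33 without rams SpermRNA350C and SpermRNA413C and −0.05 in the control group. Rams SpermRNA382T and SpermRNA485C lay apart from the other 18 in the leukocyte, squamous and simple epithelial shares, so these relations are given within the 18. There r was 0.05, 0.32 and 0.36, and rho was 0.04, 0.22 and 0.30. The squamous value was 0.03 without rams SpermRNA323T and SpermRNA359T. As percent of the TMM effective total in place of the plain total, the summed share had r = −0.83 and rho = −0.86 with the spermatid share (n = 20). The TMM log2 CPM of single members had a median rho of −0.77 with the spermatid share (n = 20, 2 of 74 above 0). Over all genes tested this median was −0.04, with 48.7% above 0. With the lymphocyte share the members' median was −0.36 (n = 20, 1 of 74 above 0), against 0.04 and 52.5% above 0 over all genes. Within the 18 libraries it was 0.35, 0.47 and 0.30 with the leukocyte, squamous and simple epithelial shares. The medians over all genes were there 0.03, 0.02 and −0.01. These values share the TMM factors.

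To place single members against spermatid content, the change of each gene per doubling of the spermatid share was fitted across all genes with edgeR's quasi-likelihood test, an analysis added after the data had been seen. With TMM scaling, 66 of the 74 genes fell and 0 rose at an adjusted p of at most 0.05, where 37.1% of the 13561 background genes (all genes tested except the spermatid markers, the members included) were called lower and 30.5% higher. Their median slope was −0.37 on the log2 scale, against −0.03 for the background genes. With library totals alone the median of the background genes moved to 0.24, and 11 members were called lower and 6 higher, against 9.96% and 56.1% of the background genes. The members' median was then −0.09. Relative to the median gene the members lay lower under both scalings, but a change of scale shifts the slopes of all genes by about the same amount. The scalings are therefore not separate support for this gap. More members were called lower than higher under both, while the size of their slopes and the number called depended on the scale. Without rams SpermRNA382T and SpermRNA485C, 65 were called lower with TMM, against 28.7% of the background genes. With the library total in the model 43 were called lower (28.1% of the background genes) and 1, RPL7, higher (22%), and the members' median slope was −0.24. With DESeq2 size factors, with the diet in the model, with the F0 sire as a random effect in limma voom and without the 5 shallowest libraries, 66, 67, 62 and 61 were called lower, against 36.7%, 36.6%, 34.5% and 24.2%. With the counts of the 2 rams of each sire summed, 4 were called lower, against 6.12%, and the median slope was −0.21. The library total itself had a rho of −0.62 with the spermatid share. Markers of other cells moved with the members in the TMM fit: 16 of 18 leukocyte, 7 of 8 squamous, 5 of 7 simple epithelial and 4 of 8 lymphocyte markers fell and 0 rose, with median slopes of −0.60, −0.58, −0.61 and −0.16. With library totals alone 2, 5, 2 and 0 of them fell and 0, 1, 2 and 2 rose. The part of these cells in the members' slopes was not tested.

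**Figure D4:**
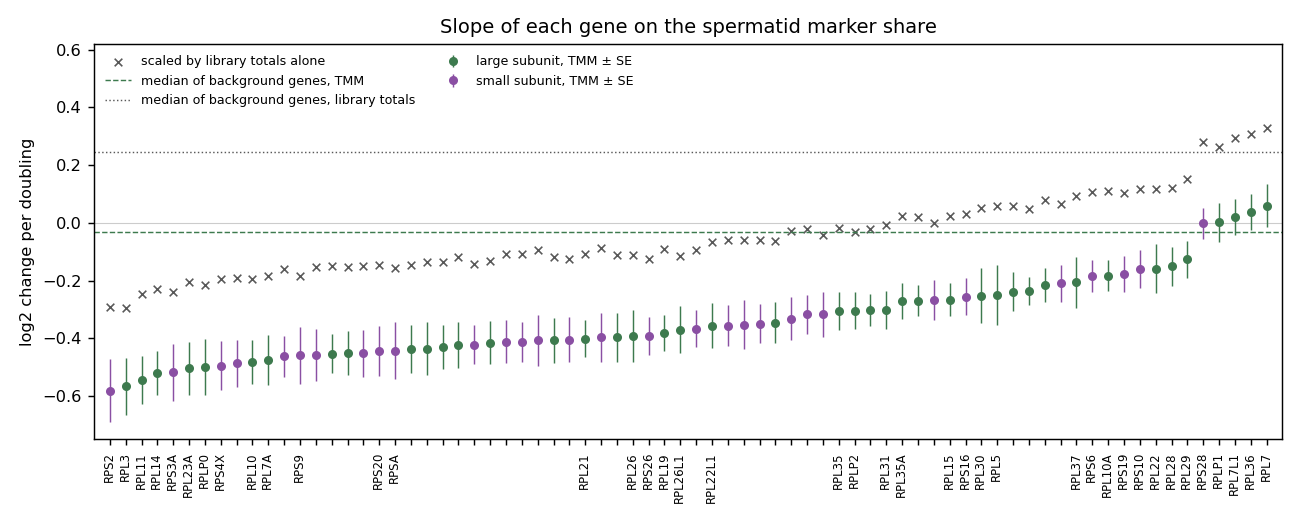
log2 change of each of the 74 tested genes per doubling of the spermatid share, with TMM (points with SE, coloured by subunit) and with library totals alone (crosses), labelled where the text names the gene. Dashed and dotted lines are the medians of the background genes under each scaling, −0.03 and 0.24; RPS28, RPLP1, RPL7L1, RPL36 and RPL7 lie at or above both medians and most other members below.

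The steepest TMM slopes were those of RPS2 (−0.58 ± 0.11 SE, adjusted p = 6.66e-05), RPL3 (−0.57 ± 0.10, adjusted p = 3.44e-05) and RPL11 (−0.54 ± 0.08, adjusted p = 5.51e-06) in edgeR's test. RPL11 binds MDM2 together with RPL5. These 3 genes also fell with library totals alone, by 0.29, 0.30 and 0.25 per doubling (adjusted p = 0.0173, 0.0063 and 0.00531). RPL7 (0.06 ± 0.08), RPL36 (0.04 ± 0.06), RPL7L1 (0.02 ± 0.06), RPLP1 (0.00 ± 0.07) and RPS28 (−0.00 ± 0.05) did not pass the test with TMM, where the adjusted p ranged from 0.486 (RPL7) to 0.988 (RPS28). With library totals alone these 5 genes and RPL29 were the 6 that rose, with slopes of 0.33, 0.31, 0.29, 0.26, 0.28 and 0.15. RPL22 (−0.16 ± 0.09, adjusted p = 0.103), RPL28 (−0.15 ± 0.07, adjusted p = 0.054) and RPL29 (−0.13 ± 0.06, adjusted p = 0.0782) were the others that did not pass with TMM. Those 3 were chosen for mention after their values were seen, as were RPL11, RPS28 and the background genes named in the next paragraph.

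Differences between members are free of the library scale when each library is scaled by the ribosomal protein counts themselves. On this scale the median slope was −0.04 for the members and 0.30 for the background genes. The background median was also 0.30 without rams SpermRNA382T and SpermRNA485C. A rise here is therefore one relative to the other members and not to the median gene. Relative to the members as a whole, 11 genes then rose with the spermatid share and 10 fell, where 60.2% of the background genes were called higher and 5.98% lower. Those that rose were RPL7 (0.39 ± 0.07, adjusted p = 9.71e-06), RPL36 (0.38 ± 0.07, adjusted p = 1.28e-05), RPL7L1 (0.34), RPLP1 (0.32 ± 0.06, adjusted p = 3e-05), RPS28 (0.32 ± 0.05, adjusted p = 9.61e-06), RPL29, RPL28, RPS10, RPL10A, RPS6 and RPS19. RPS6 is the ribosomal target of S6 kinase. With TMM in edgeR's test, 4 of these genes were called lower, with slopes nearer 0 than the members' median of −0.37. They were RPS6 (−0.18, adjusted p = 0.0057), RPL10A (−0.18, adjusted p = 0.00487), RPS19 (−0.18, adjusted p = 0.0142) and RPS10 (−0.16, adjusted p = 0.0361). Among those that fell were RPS2 (−0.27 ± 0.08, adjusted p = 0.00595), RPL3 (−0.26 ± 0.09, adjusted p = 0.00805), RPL11, RPL14, RPS3A, RPL23A, RPLP0 (−0.19 ± 0.08, adjusted p = 0.032), RPL10 and RPL7A. Without rams SpermRNA382T and SpermRNA485C only RPL7 (0.37, adjusted p = 0.000428), RPS28 (0.32, adjusted p = 0.000262), RPL36 (0.31, adjusted p = 0.0026) and RPLP1 (0.19, adjusted p = 0.0132) were still called, all higher, and 0 were called lower, against 54.5% and 0.804% of the background genes. The slopes of the other 7 genes called higher stayed above 0, between 0.09 (RPS10) and 0.22 (RPL7L1), without passing the test. The slopes of the 10 genes called lower all stayed below 0 without those 2 libraries, between −0.15 and −0.07, but none passed the test. The scale is the plain sum of the members' counts. RPLP1 and RPL7 took 21.7% and 8.41% of this sum in ram SpermRNA382T and 19.6% and 6.39% in ram SpermRNA485C. A rise of these genes by itself lowers the slopes of all other members on this scale, and its part in the falls was not tested. Both libraries also had the lowest leukocyte and epithelial marker shares, and their part in these slopes was not tested.

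Other genes of the translation machinery were read from the same fit. Of 14 translation factors tested, 11 fell with the spermatid share under TMM and 0 rose (median slope −0.34), where 37.1% of the background genes fell and 30.5% rose. With library totals alone 4 fell and 4 rose, where 9.96% of the background genes fell and 56.1% rose. EEF1A1, which brings aminoacyl-tRNA to the ribosome, fell by 0.55 per doubling (SE 0.10, adjusted p = 6.67e-05), and PABPC1, the cytoplasmic poly(A) binding protein, fell by 0.71 (SE 0.15, adjusted p = 0.000192). EEF1D (0.11 ± 0.05, adjusted p = 0.0685), EEF1G (0.12 ± 0.07, adjusted p = 0.117) and EIF3K (−0.09 ± 0.06, adjusted p = 0.156) did not pass. Of 4 ribosomal proteins or ribosome-bound proteins whose names fall outside the rule, 3 (FAU among them) fell and 0 rose under TMM, and 0 fell and 1 rose with library totals alone. Mitochondrial ribosomal proteins, which serve a separate ribosome, had 16 of 36 tested genes called higher and 6 lower under TMM (median 0.10), and 28 higher and 1 lower with library totals alone. Ribosome biogenesis genes had 7 of 17 called higher and 3 lower under TMM (median 0.09), and 13 higher and 0 lower with library totals alone. With library totals alone the medians of these lists were −0.05, −0.06, 0.36 and 0.36, in the same order, against 0.24 for all genes.

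In 3 pairs both a common ribosomal protein and its paralog passed the filter. The counts of RPL26L1 over those of RPL26 were 0.662, 1.94 and 12.3 (lowest, median, highest, with 0.5 added to each count) in the treatment group and 0.823, 2.87 and 22.3 in the control group. The highest ratio, in ram SpermRNA449C, rested on 1 count of RPL26. For RPL22L1 over RPL22 the values were 0.793, 1.58 and 8.33 in the treatment group, and the control group had a lowest ratio of 0.641 and a median of 1.85. The 2 highest ratios, in rams SpermRNA413C and SpermRNA426T, rested on 0 and 1 counts of RPL22. RPL7L1 over RPL7 was 0.0145, 0.0943 and 0.467 in the treatment group and 0.0415, 0.0813 and 0.244 in the control group, with ram SpermRNA359T lowest. None of the 3 ratios differed between the groups beyond the spread: the log2 differences, treatment minus control, were −0.47 (p = 0.469), −0.03 (p = 0.954) and 0.18 (p = 0.725) in two-sided permutation tests, and 0.954 for each after adjustment over the 3 pairs. Reads that match a paralog or a retrocopy as well may not have been counted for either gene, so that the ratios are uncertain in their level.

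Against the spermatid share, over the 20 rams, the RPL22L1 to RPL22 ratio had r = −0.36 (p = 0.122, adjusted 0.365, permutation test) and rho = −0.54 (p = 0.0152, adjusted 0.0457). The relation no longer passed the test without rams SpermRNA382T and SpermRNA485C, which had the lowest ratios, where r was −0.09 and rho −0.37 (adjusted p = 0.727 and 0.379, permutation tests). Nor did it pass over sire means, where r was 0.09 and rho −0.13 (adjusted p = 0.804 and 0.731, permutation tests). For RPL26L1 to RPL26 r was 0.04 and rho 0.04, and for RPL7L1 to RPL7 r was −0.09 and rho −0.01 (adjusted p between 0.851 and 0.966, permutation tests). Without the same 2 rams r was 0.18 and −0.14.

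The study asked whether the diet of the F0 ram altered sperm DNA methylation and phenotypes in later generations. It correlated F2 RNA levels with methylation, and the comparison of RNA between the groups here is another measure. For the ribosomal protein genes, 0 of 74 were called between the groups by edgeR's quasi-likelihood test at an adjusted p of at most 0.05, against 0% of all 13577 genes tested in either direction. At an unadjusted p under 0.05, 0 of 74 were called higher and 0 lower, against 0.324% and 0.442% of all genes. Both shares of all genes lay far under what a threshold of 0.05 gives when there is no difference. The test thus called few genes of any kind, and 0 of 74 does not show that the groups were alike. The cause was not tested. DESeq2's Wald test and limma voom called 0 of 74 as well. The groups overlapped for each of the 74 genes in TMM CPM, and 0% of all genes were free of overlap.

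The fitted log2 differences, treatment minus control, lay between −0.13 and 0.56, with a median of 0.19 and 67 of 74 above 0, against a median of −0.05 and 5814 of 13577 above 0 over all genes tested. The SE of a single gene was 0.28 to 0.65. Without ram SpermRNA372T, whose library had high levels of many members, the median was −0.04 and 32 were above 0. Without ram SpermRNA468C, a control ram with high levels, the median was 0.42, and without any other single ram it lay between 0.076 and 0.30. With DESeq2 size factors and with library totals alone the median was 0.11 and 0.23. With the ribosomal protein counts as the scale, which sets their common level near 0, it was −0.08, against −0.34 for all genes. The sign of the median held under TMM, DESeq2 size factors and library totals but not without SpermRNA372T.

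**Figure D5:**
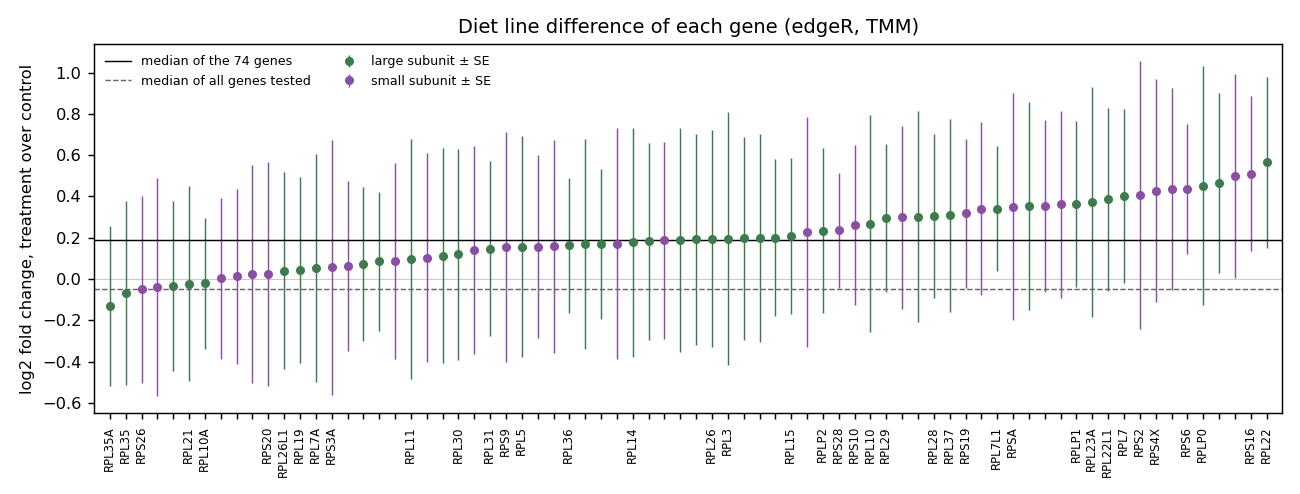
log2 fold change, treatment over control, of each of the 74 tested genes with its SE (points, coloured by subunit, labelled where the text names the gene). The solid line is their median, 0.19, and the dashed line the median of all genes tested, −0.05; 0 of the 74 passed the test.

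The 3 genes with the smallest p among those higher in the treatment group were RPS6, RPL22 and RPS16. RPS6 had 9.41, 17.3 and 49.0 CPM (lowest, median, highest) in the treatment group and 7.12, 13.1 and 24.6 in the control group, with a log2 difference of 0.44 ± 0.32 SE (p = 0.181, adjusted p = 1.00 in edgeR's test). RPL22, which also binds viral and cellular RNAs outside the ribosome, had 0.784, 5.78 and 18.3 CPM against 0, 5.25 and 8.62, with a difference of 0.56 ± 0.42. RPS16 had 8.63, 15.3 and 58.4 CPM against 6.26, 11.2 and 27.1, with a difference of 0.51 ± 0.38. In all 3 genes ram SpermRNA372T was highest. Leaving out each ram in turn, the differences of RPS6, RPL22 and RPS16 ranged from 0.19 to 0.54, 0.33 to 0.68 and 0.20 to 0.65. Among those lower in the treatment group, RPL35A (−0.13 ± 0.39), RPL35 (−0.07 ± 0.45) and RPS26 (−0.05 ± 0.45) had the smallest p, and their groups had almost the same means, 7.87 against 8.70 CPM, 40.1 against 42.1 and 17.1 against 17.7. The differences of RPLP0 (0.45 ± 0.58), RPLP1 (0.36 ± 0.40), RPLP2 (0.23 ± 0.40) and RPSA (0.35 ± 0.55) were all smaller than their SE. Leaving out each ram in turn, they ranged from 0.22 to 0.69, 0.25 to 0.47, 0.085 to 0.43 and 0.068 to 0.58, in the same order.

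Beside these values, 0 of 18 leukocyte markers were called between the groups, with a median log2 difference of −0.75 and all 18 below 0. The median was 0.17 for 16 spermatid markers, 0.10 for 8 lymphocyte markers, 0.15 for 8 squamous and 0.04 for 7 simple epithelial markers, none of them called. The summed leukocyte share overlapped between the groups. It was 0.0419% to 1.77% with a median of 1.10% in the treatment group. In the control group it was 0.0236% to 3.64% with a median of 1.30%, highest in ram SpermRNA350C. The part of single rams in the leukocyte difference was not tested. With the spermatid, leukocyte and squamous shares in the model, the members' median was 0.32 with 73 of 74 above 0, 3 of them higher at an unadjusted p under 0.05 (0.965% of all genes) and 0 called. The median of all genes was then 0.05. Translation factors, the 4 proteins outside the rule, mitochondrial ribosomal proteins and ribosome biogenesis genes had medians of 0.09, 0.12, 0.02 and 0.00, and 0 genes of these lists were called.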

How the data were processed

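RNA of 20 F2 semen samples was analysed. According to the labels and the study's methods, the authors trimmed single-end reads of 100 bases with Trimmomatic, aligned them to Oar_rambouillet_v1.0 with STAR and deposited raw counts per gene from its gene count mode, which leaves out reads with several matches. The strand setting is not given in the sources used here. The deposited counts were used as they are. The methylation files were not used here.

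Genes with a count of 15 or higher in over 10 of the rams were fitted in edgeR 4.0.16 (TMM, robust quasi-likelihood test, Benjamini-Hochberg over all genes tested, threshold 0.05), in R 4.3.3. limma 3.58.1 and DESeq2 1.42.0 served as alternatives. Log2 CPM used a prior count of 2 and ratios a pseudocount of 0.5. Permutation tests were two-sided with 100000 resamples (SciPy 1.17.1), and correlations of sums over the genes carry no p: the permutation tests planned for those sums were left out. The fits were also run on simulated data, with outcomes not given here. Library totals of 805831 to 13137757 counts set the precision, and alternatives are given in the closing section.

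The genes, the marker and comparison lists and the tests were chosen with earlier results of these data known. Genes were named by this rule: RPLP0, RPLP1, RPLP2 and RPSA, both genes of each paralog pair, X-linked members, the 5 with the highest mean CPM, the 5 members most and the 5 least constant in their ratio to the members' mean, the 3 with the smallest p in each direction between diets, and members under the filter. RPL10L, RPL39, RPL39L, a few other genes of the large subunit and a second entry for RPS26 were not analysed here, so that sums and the subunit ratio cover most ribosomal protein genes but not all. Some genes that this rule would name are not reported here. Where nothing else is said, rams of a sire were treated as separate animals.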

Additional observations from a re-analysis of the deposited data

Results flagged for a closer look

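Samples far from the rest of their group were sought in 70 groups of 10 libraries (the log2 share, ratios and levels of the named genes in each diet group), by the gap to the nearest library as a part of the group's range. Chance alone gives about 1 in 20 such groups, and 7 of 70 were found. The groups share libraries and many of the genes vary together, so that 7 of 70 is not a test against that rate. The log2 large to small subunit ratio of ram SpermRNA485C (control) was 1.20, against 0.76 for the next. In ram SpermRNA382T (treatment) the log2 CPM of RPL3 was 2.76, that of RPSA 2.01 and that of RPLP2 2.48, against 5.95, 5.13 and 3.92 in the next lowest treated ram. RPL22 was 0.35 in ram SpermRNA426T (treatment), where it had 1 count, and −1.03 in ram SpermRNA413C (control), where it had 0 counts. RPL36 was 2.25 in ram SpermRNA329T (treatment), against 3.98 in the next. Rams SpermRNA382T and SpermRNA485C also had the highest spermatid marker shares of the series, and rams SpermRNA382T, SpermRNA413C and SpermRNA426T were among the 5 libraries under 2000000 counts.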

How the results depend on the processing

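Between diets, 0 of 74 members (0 of 77 without a filter) were called under each alternative: other size factors or library totals, DESeq2, limma voom with and without the sire as a random effect, summed or blocked sires, marker shares as covariates, the members' own counts as the scale, and without each ram, rams SpermRNA382T and SpermRNA485C or libraries under 2000000 counts (0 to 0 without each ram). Leaving out each ram, the log2 difference of the summed share ranged from 0.18 to 0.33 and that of the subunit ratio from −0.08 to 0.05. The paralog differences ranged from −0.72 to −0.18 (RPL26L1), −0.26 to 0.22 (RPL22L1) and −0.068 to 0.49 (RPL7L1). RPL22L1 to RPL22 turned to 0.062 with a pseudocount of 5 and to 0.15 without libraries under 2000000 counts, and RPL7L1 to RPL7 to −0.41 there; the cause was not tested. RPL35 turned to 0.039 with library totals, 0.071 with summed sires, 0.00122 with consecutive sire numbers as a block and 0.044 with marker shares. RPS26 turned to 0.13, 0.011, 0.16 and 0.14 in the same settings, 0.10 and 0.10 in limma voom without and with the sire, and 0.045 without shallow libraries. Without each ram, RPL35 ranged from −0.31 to 0.25, RPS26 from −0.31 to 0.26 and RPL35A from −0.49 to 0.077, in 6, 5 and 1 cases with the other sign.

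The relation of the summed share with leukocyte markers was −0.19 (r) and 0.10 (rho) over sire means of the 18 libraries. That with squamous markers was 0.030 (r) and −0.015 (rho) without the 2 farthest rams, and 0.076 (r) and 0.017 (rho) in controls. Over sire means the paralog relations with the spermatid share were 0.087 (r) and −0.13 (rho) for RPL22L1, −0.24 and −0.24 for RPL26L1 and 0.29 and 0.36 for RPL7L1, and rho for RPL22L1 was −0.37 without rams SpermRNA382T and SpermRNA485C. The count of members lower with the spermatid share was 66 with TMM, 10 with the members' own counts, 11 with library totals, 43 with the library total in the model, 4 with summed sires and 0 with the members' own counts without rams SpermRNA382T and SpermRNA485C. It was 61 to 67 in the remaining settings. Settings without rams SpermRNA382T and SpermRNA485C or shallow libraries, and all of the spermatid slopes, were chosen after seeing the data. Low counts limit RPL36A, RPL3L, RPS27L, RPL22 and RPL30 in shallow libraries.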
